A study of Mus musculus with 6 samples.

Results

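Trem2 and 9 genes that are read together with it as the lipid-associated macrophage program (Apoe, Lpl, Cd36, Fabp4, Fabp5, Plin2, Gpnmb, Lgals3 and Spp1) were followed in the transcriptome of CD8T cells cocultured with macrophages. The 10 genes were found by name among the 54532 genes of the count table. They had been chosen by their values in the comparison described here, so their differences between the groups are given as a description. The calls that the fit over all genes made among them are counted, and are not read as a test of these genes.

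CD8T cells were isolated from mouse spleen by kit, activated with beads carrying antibodies to CD3 and CD28, and cocultured for 24 hr at equal numbers with thioglycolate-elicited peritoneal macrophages. All macrophages had been activated with IFN-γ at 10 ng/mL for 12 hr. In the control group (n = 3) the macrophages received no DB2313. In the DB2313 group (n = 3) they had been given DB2313, a compound that inhibits the transcription factor Spi1 (PU.1), for which the methods give 14 nM. Both groups therefore shared the bead activation, the IFN-γ and the coculture. GEO's labels split the samples in the same way, but call the cocultured cells DC where the methods describe macrophages. The sources used here state neither mouse genotype or age nor whether the 3 samples of a group came from separate cultures, so the errors may be technical only.

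Between 16611975 and 18596217 reads were counted on genes in a library, and 14883 genes passed the filter on low counts. T cell markers were present in every library, with Cd3e at 136 ± 4.87 CPM (counts-per-million, scaled by TMM, the trimmed mean of M values) in control and 169.5 ± 15.3 in DB2313 libraries (SD, n = 3 each, as throughout), and Cd8a at 119 ± 3.91 and 172 ± 10.2. The macrophage genes Lyz2, Csf1r, Adgre1 and C1qa were abundant as well, with Lyz2 at 7702 ± 133 CPM in the control group. Of the dendritic cell markers, Ccl22 (2190 ± 12.9 CPM) and Ccr7 (889 ± 9.02) were high in the control group, Flt3 was at 28.2 ± 0.797, and Siglech had no count in any library. Transcripts that mark T cells and transcripts that mark myeloid cells were thus both counted in these libraries, and in such bulk samples fewer cells of a type and less RNA per cell cannot be told apart.

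Lipid-associated macrophages gather where lipid must be cleared, as in adipose tissue, the brain and the atherosclerotic plaque. Trem2 is a surface receptor of myeloid cells that binds lipids, lipoproteins and Apoe, and passes its signal on through the adaptor Tyrobp and the kinase Syk. The cells that carry it take up lipid (Cd36, Lpl), move fatty acids within the cell (Fabp4, Fabp5), keep neutral lipid in droplets (Plin2), export it on Apoe, and express glycoproteins and lectins of the phagocyte lysosome and the matrix (Gpnmb, Lgals3, Spp1).

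Since the macrophages had been treated with an inhibitor of Spi1, promoter windows were searched for AGGAAGT, a core of the sites that Spi1 and other ETS factors bind. Each window held the 250 bases before a start site. RefSeq promoter sequences of GRCm38.p6 were matched for 7 of the 10 genes, with 10 start sites among them. Lpl, Fabp4 and Fabp5 had no match. Some of the 10 start sites lie inside the gene as the count table bounds it. This holds for the windows of Cd36 (chr5:17835897-17836146) and Lgals3 (chr14:47373610-47373859). Windows of Apoe (chr7:19698399-19698648 and chr7:19698622-19698871) and Spp1 (chr5:104435942-104436191) also lay inside. All 250 bases of that Spp1 window were exon. The bases checked after the Cd36 start were in no annotated transcript of the gene. The promoter of Trem2 (chr17:48346151-48346400, + strand) is shown as the window before the receptor itself, and that of Spp1 (chr5:104434861-104435110, + strand) as the only one of the 10 windows that held the motif, printed in capitals.
Trem2: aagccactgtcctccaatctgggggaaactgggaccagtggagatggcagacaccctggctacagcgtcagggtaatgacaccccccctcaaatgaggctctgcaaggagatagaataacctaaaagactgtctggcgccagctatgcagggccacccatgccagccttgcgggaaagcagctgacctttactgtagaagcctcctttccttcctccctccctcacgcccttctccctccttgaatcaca
Spp1: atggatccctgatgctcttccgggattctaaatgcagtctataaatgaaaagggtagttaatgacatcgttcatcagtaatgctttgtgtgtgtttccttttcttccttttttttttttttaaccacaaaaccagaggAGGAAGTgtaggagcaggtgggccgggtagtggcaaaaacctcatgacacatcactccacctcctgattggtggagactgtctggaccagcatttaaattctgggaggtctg
In Spp1 the motif began 112 bases before the start, on the strand of the gene. On either strand, 7.69% of the 32851 mouse promoters in the RefSeq table held AGGAAGT. The letters TCATGTG and CACGTG, which the Mitf and Tfe factors of lysosomal genes bind, were in 0 of the 7 genes' windows and in 3.25% and 6.02% of all promoters. The match in Spp1 overlapped no other motif searched.

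All 10 genes passed the filter on low counts. With TMM scaling, Trem2 and Plin2 were higher and the other 8 were lower in the DB2313 group, but with the libraries scaled to T cell markers Plin2 was lower and Trem2 lay at -0.03 (SE 0.043), within its error of 0, and with scaling to macrophage markers every gene except Cd36 lay above 0. By the quasi-likelihood test of edgeR, adjusted after Benjamini and Hochberg, 2 of the 10 were called higher and 8 lower at an adjusted p below 0.05, where 20.8% of all genes tested were called higher and 24.6% lower. With an absolute log2 fold change above 1 as well, 0 were called higher and 2 lower (Cd36 and Fabp4), against 1.37% and 5.3% of all genes. By the fold rule, 0 were also called higher at an unadjusted p below 0.05 and with DESeq2. Scaling to marker genes changed the calls by this rule. With macrophage markers, Trem2 (1.98), Plin2 (1.602) and Gpnmb (1.10) passed it as higher, while Cd36 (-0.82) and Fabp4 (0.40) did not pass it. With T cell markers, Apoe, Lpl, Cd36, Fabp4, Fabp5, Lgals3 and Spp1 passed it as lower. On TMM-scaled CPM, none of the 10 genes had a control library that overlapped a DB2313 library. Among all genes tested, 25.6% lay wholly higher and 27.5% wholly lower. Overlap was not assessed with other scalings, here or for the single genes below. The median log2 fold change of the 10 genes was -0.73, and that of all genes tested was 0.02. Nothing is read from these counts, because the same contrast chose the genes.

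**Figure D1:**
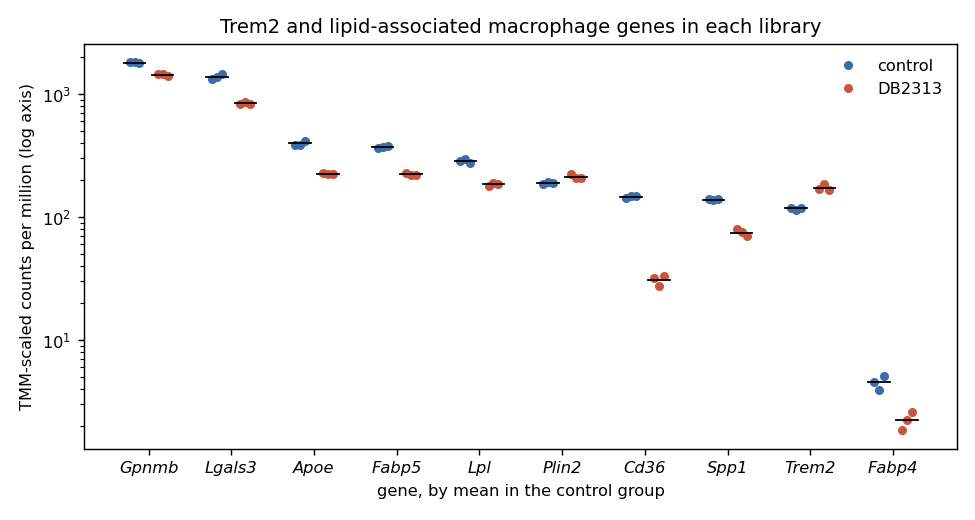
TMM-scaled CPM (log axis) of Trem2 and the 9 other genes in the 3 control and 3 DB2313 libraries, with 1 point per library and the group mean as a line. The points of the groups do not overlap for any gene, and with TMM, though not with every scaling, Trem2 and Plin2 were higher and the rest lower in the DB2313 libraries. Scaling to T cell markers turned the direction of Plin2 and left Trem2 at -0.03, within its error of 0, and scaling to macrophage markers that of all the lower genes but Cd36.

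Trem2, the receptor (ENSMUSG00000023992, chr17:48346401-48354147, + strand, GRCm38), was at 119, 115 and 119 CPM in the control libraries and at 168, 184 and 165 CPM in the DB2313 libraries. With TMM scaling, every DB2313 library was above every control library. The mean was 118 ± 2.47 CPM in control and 173 ± 9.98 CPM in DB2313 libraries, a difference of 46.6% and a log2 fold change of 0.55 (SE 0.042). The counts behind it were 2150, 1974 and 1950 in the control libraries and 3112, 3138 and 3040 in the DB2313 libraries. T cell markers differed by a similar amount, with a median log2 fold change of 0.59 over 18 genes, and macrophage markers by a median of -1.22 over 19 genes. Their part in the value of Trem2 was not tested.

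Within a library, the counts of Trem2 can be set against those of another gene without any scaling. Tyrobp encodes the adaptor without which Trem2 does not signal, and the ratio of Trem2 to Tyrobp counts was 0.283, 0.253 and 0.255 in the control libraries and 0.702, 0.778 and 0.772 in the DB2313 libraries. The ratio to Apoe, a ligand, was 0.297 ± 0.0125 in control and 0.766 ± 0.0467 in DB2313 libraries. These ratios did not overlap between the groups. Against Csf1r, the receptor for macrophage colony-stimulating factor, the ratio was 0.205 ± 0.00347 and 0.740 ± 0.0267. Against C1qa, a complement component made by macrophages, it was 0.508 ± 0.0252 and 2.44 ± 0.184. Trem2 thus had fewer counts than C1qa in each control library and more in each DB2313 library. Each of these denominators was lower in the DB2313 group with TMM scaling, at -0.96 for Tyrobp, -0.82 for Apoe, -1.30 for Csf1r and -1.71 for C1qa. The choice of genes therefore fixed in advance that the ratios would be higher. No T cell gene was used as a denominator, and the T cell markers had a median of 0.59 beside 0.55 for Trem2.

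Apoe encodes the apolipoprotein that carries cholesterol out of macrophages and binds to Trem2 (ENSMUSG00000002985, chr7:19696109-19699188, - strand). It was at 385, 388 and 419 CPM in the control libraries and at 226, 224 and 225 CPM in the DB2313 libraries. All DB2313 libraries were lower, and they spread by less than the control libraries, with an SD of 1.02 against 18.7 CPM. The log2 fold change was -0.82 (SE 0.037).

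Cd36, the scavenger receptor for oxidized lipoproteins and long-chain fatty acids (ENSMUSG00000002944, chr5:17781690-17888801, - strand), had the largest difference of the 10 genes with TMM scaling. Its values were 143, 147 and 149 CPM in the control libraries and 31.8, 27.6 and 32.8 CPM in the DB2313 libraries. The control mean was 4.75 times the DB2313 mean, and the log2 fold change was -2.25 (SE 0.054). Of the 10 genes, it alone was lower under each scaling, with -2.83 when the libraries were scaled to T cell markers and -0.82 when they were scaled to macrophage markers. Lpl encodes lipoprotein lipase, which frees fatty acids from triglyceride-rich particles (ENSMUSG00000015568, chr8:68880491-68907448, + strand). It was at 283, 298 and 274 CPM in the control libraries and at 177, 190.3 and 185 CPM in the DB2313 libraries. The groups did not overlap, and the log2 fold change was -0.63 (SE 0.039).

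The fatty acid-binding proteins carry fatty acids through the cytosol. Fabp5 (ENSMUSG00000027533, chr3:10012548-10016607, + strand) was at 361, 369.5 and 381 CPM in the control libraries and at 228, 218 and 219 CPM in the DB2313 libraries, a log2 fold change of -0.74 (SE 0.035). Fabp4 (ENSMUSG00000062515, chr3:10204088-10208576, - strand), the form that marks adipocytes and mature macrophages, was at 4.54 ± 0.587 CPM in control and 2.23 ± 0.384 CPM in DB2313 libraries, from 82, 68 and 84 counts and from 34, 38 and 48 counts. In both genes every DB2313 library was below every control library. The log2 fold change of Fabp4 was -1.03 with an SE of 0.22, the widest error of the 10 genes, and it came to -0.93 without control replicate 3, -0.90 without DB2313 replicate 1 -0.93 with library size and -0.96 with upper quartile scaling, so that the fold rule then left Cd36 alone. The ratio of Fabp4 to Fabp5 counts was 0.0122 ± 0.00141 in control and 0.0101 ± 0.00193 in DB2313 libraries, and these ranges overlapped. Pseudogene copies of Fabp5 took 1 count in all (Fabp5l2), so few reads were counted on them.

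Plin2 encodes the coat protein of lipid droplets (ENSMUSG00000028494, chr4:86648386-86670060, - strand). It was at 185, 192 and 188 CPM in the control libraries and at 222, 207 and 208 CPM in the DB2313 libraries. All DB2313 libraries were higher, by 12.8% in the mean, and the log2 fold change was 0.17 (SE 0.037). This was the smallest difference of the 10 genes with TMM scaling, whereas Trem2 had the smallest with T cell markers and Fabp4 with macrophage markers. The ratio of Plin2 to Lpl counts was 0.661 ± 0.0236 in control and 1.16 ± 0.0873 in DB2313 libraries, without overlap. With TMM, Plin2 was higher and Lpl lower in the contrast that chose these genes, so this separation follows from the pairing.

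Gpnmb, a transmembrane glycoprotein of the phagocyte lysosome (ENSMUSG00000029816, chr6:49036546-49070929, + strand), was at 1806, 1808 and 1795 CPM in the control libraries and at 1466, 1451 and 1405 CPM in the DB2313 libraries. Lgals3 encodes galectin-3, a lectin that macrophages secrete (ENSMUSG00000050335, chr14:47367751-47386160, + strand). It was at 1336, 1379 and 1443 CPM in the control libraries and at 837, 862 and 826 CPM in the DB2313 libraries. Both were lower in each DB2313 library, Gpnmb by a log2 fold change of -0.32 (SE 0.029) and Lgals3 by -0.72 (SE 0.033). Spp1 encodes osteopontin, a secreted ligand of integrins and Cd44 (ENSMUSG00000029304, chr5:104435118-104441050, + strand). Its values were 141, 137 and 139 CPM in the control libraries and 79.3, 74.9 and 69.8 CPM in the DB2313 libraries, again without overlap, with a log2 fold change of -0.89 (SE 0.046). The table also lists Gm42793 within Spp1, on the same strand, over 1252 bases and with 1 count in all libraries. None of the other 9 genes overlapped a gene with a count.

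Levels of different genes were compared per length, as RPKM (the TMM-scaled CPM divided by the gene length in kilobases that the table gives). That length need not be the length of a transcript. For Fabp4 it was 4489 bases, the whole span of the gene, and for Trem2 it was 4946 bases. The order between genes, and any change of places in it, therefore rests on these lengths. In the control group the level was highest for Lgals3 (746 ± 29.0 RPKM), followed by Gpnmb (277 ± 1.10), Apoe (186 ± 8.73), Fabp5 (104 ± 2.80), Spp1 (84.1 ± 1.26), Plin2 (53.6 ± 0.988), Cd36 (40.7 ± 0.728), Lpl (27.2 ± 1.19), Trem2 (23.8 ± 0.4998) and Fabp4 (1.01 ± 0.131). No neighbours in this order overlapped. In the DB2313 group the first 4 places were the same, with Lgals3 at 453 ± 9.83, Gpnmb at 221 ± 4.91, Apoe at 105 ± 0.479 and Fabp5 at 62.1 ± 1.61 RPKM. Plin2 came next with 60.4 ± 2.41 RPKM, and its libraries overlapped those of Fabp5. Spp1 (45.3 ± 2.89), Trem2 (34.9 ± 2.02), Lpl (17.6 ± 0.638), Cd36 (8.57 ± 0.773) and Fabp4 (0.496 ± 0.0855) followed without overlap. Cd36 stood above Lpl and Trem2 in control and below both in DB2313 libraries.

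The counts of the 10 genes together were between 0.462% and 0.473% of all counts in the control libraries and between 0.346% and 0.354% in the DB2313 libraries. Macrophage markers (19 genes) took 1.44% to 1.47% and 0.571% to 0.581%, neutrophil markers (11 genes) 0.195% to 0.196% and 0.0727% to 0.0746%, and T cell markers (18 genes) 0.320% to 0.324% and 0.512% to 0.523%. All of these moved with the groups, and their part in the values of the 10 genes was not tested. Within the counts of the 10 genes, Trem2 took 2.43% in control and 5.07% in DB2313 libraries, Plin2 3.89% and 6.23%, Gpnmb 37.3% and 42.3%, and Cd36 3.02% and 0.904%. The smallest distances between the profiles over the 6 libraries were between Fabp5 and Lgals3 (root mean square of 0.0358 in log2 CPM after centring), Apoe and Fabp5 (0.0456) and Apoe and Lgals3 (0.0542), and the largest was between Trem2 and Cd36 (1.40).

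**Figure D2:**
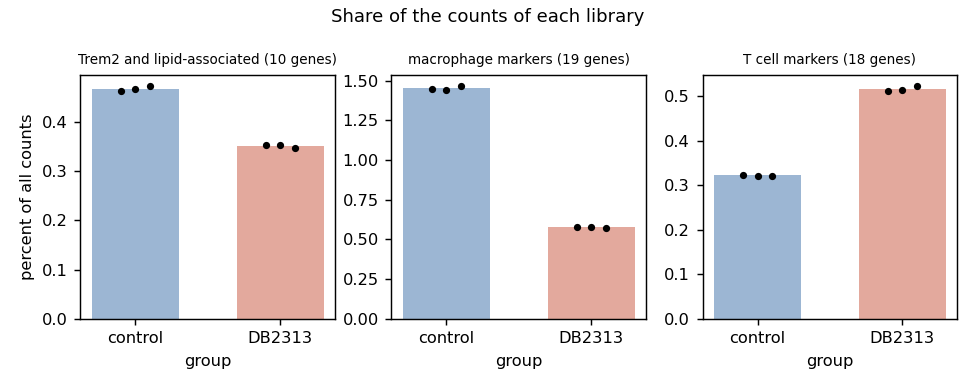
Percent of all counts taken by the 10 genes, by 19 macrophage markers and by 18 T cell markers, with the group mean as a bar and 1 point per library (n = 3 per group). The 10 genes took 0.462% to 0.473% in control and 0.346% to 0.354% in DB2313 libraries, the macrophage markers 1.44% to 1.47% and 0.571% to 0.581%, and T cell markers were higher in each DB2313 library.

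With TMM scaling, macrophage markers had a median further from 0 than 9 of the 10 genes, but with scaling to these markers it was nearer to 0 than each of the 10. Of 19 markers, 18 fell and 1 rose at an adjusted p below 0.05, where 24.6% of all genes tested fell and 20.8% rose. The test was the quasi-likelihood test of edgeR, adjusted after Benjamini and Hochberg over all 14883 genes, as for every other list. The median log2 fold change of -1.22 became 0.21 with scaling to the same markers (12 higher and 5 lower, against 13919 and 232 of all genes). Lyz2, the lysozyme of myeloid cells, was at 7702 ± 133 and 2084 ± 36.6 CPM (log2 fold change -1.89), and Ctss, a cathepsin of antigen-presenting cells, at 2037 ± 13.1 and 1165 ± 16.0 CPM (-0.81). On the log2 scale Csf1r fell by 1.30 and Adgre1, which encodes F4/80, fell by 1.89, and C1qa had a log2 fold change of -1.71. Ms4a7, a membrane protein of macrophages, went the other way, from 31.0 ± 2.51 to 83.9 ± 3.36 CPM (1.44). Against the median of these markers, the log2 fold change was 1.77 higher for Trem2, 1.40 for Plin2, 0.90 for Gpnmb, 0.59 for Lpl, 0.50 for Lgals3, 0.48 for Fabp5, 0.40 for Apoe, 0.33 for Spp1 and 0.20 for Fabp4. Cd36 lay 1.02 below it, at -1.02, and below each of the 19 markers. Trem2, Plin2 and Gpnmb each lay above 18 of them.

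The scaling therefore sets the sign of most differences. TMM and library size scaling gave all 10 genes the same sign, with 0.65 for Trem2, 0.27 for Plin2 and -2.15 for Cd36 by library size. With the libraries scaled to the T cell markers, Trem2 was at -0.03, Plin2 at -0.41 and Apoe at -1.40. With scaling to the macrophage markers, Trem2 was at 1.98, Plin2 at 1.602, Gpnmb at 1.10 and Apoe at 0.61. The median of all genes tested was 0.02 with TMM, 0.11 with library size, -0.57 with T cell markers and 1.45 with macrophage markers. A scaling moves all genes by the same amount, so the values relative to that median are nearly fixed by construction, at 0.53 for Trem2, 0.15 to 0.16 for Plin2 and -2.27 for Cd36. Lyz2 alone made up 50.8% to 51.6% of the macrophage marker counts in the control libraries and 37.1% to 37.5% in the DB2313 libraries.

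**Figure D3:**
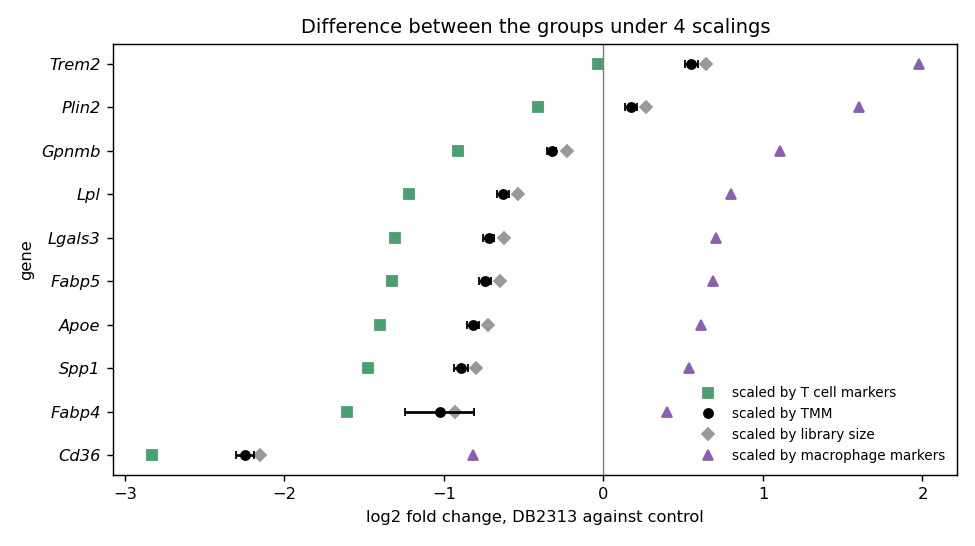
Log2 fold change of each of the 10 genes in the DB2313 group against the control group, with 1 symbol for each of 4 scalings and the SE of the TMM fit as a bar (n = 3 per group). Trem2 lies at -0.03 with T cell markers, 0.55 with TMM and 1.98 with macrophage markers, and Cd36 is the only gene below 0 under each of them.

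Of the 14 other Trem receptors and genes of their signalling, 3 rose, 8 fell and 3 did not pass, where 20.8% and 24.6% of all genes rose and fell. The median was -0.27. With macrophage markers as the scale 13 were higher and 0 lower (median 1.15), and with T cell markers 0 and 12. Over all genes tested the same scalings gave 13919 higher and 232 lower, and 173 and 11492. These shares and counts over all genes apply beside each list below as well. Tyrobp was at 447 ± 23.7 and 230.1 ± 13.97 CPM (log2 fold change -0.96, SE 0.043, Benjamini-Hochberg adjusted p = 8.03e-15 in edgeR). Syk, the kinase that binds the phosphorylated adaptor, was at 281 ± 7.66 and 155 ± 2.99 CPM (-0.86, SE 0.036). Hcst, which encodes the adaptor DAP10, rose from 34.0 ± 1.64 to 39.2 ± 1.82 CPM (0.20, SE 0.068), a call that was lost with DESeq2 and when control replicate 3 (0.17) or replicate 1 of the DB2313 group (0.16) was left out.

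The Trem receptors lie in a cluster on chromosome 17. Treml1, which platelets carry, starts 5769 bases from Trem2 and rose from 5.42 ± 0.837 to 9.29 ± 1.12 CPM (0.77, SE 0.15). Treml2, found on lymphocytes and myeloid cells and 33868 bases away, rose from 189.7 ± 3.68 to 217 ± 3.72 CPM (0.20, SE 0.035). Treml4 fell by 0.87 on the log2 scale, on 206 counts in all, a call that was lost with DESeq2 and when control replicate 2 (-0.79) or replicate 2 (-0.71) or 3 (-0.80) of the DB2313 group was left out. Trem1 and Trem3, which amplify inflammation, did not pass, with -0.08 and 0.28. Next to Apoe, Tomm40 did not pass (-0.01), Apoc1 had 17 counts in all and was not tested, and Apoc2 and Apoc4 had no count.

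Of 28 other genes of lipid-associated macrophages, 4 rose, 19 fell and 5 did not pass, with a median of -0.41. Of all genes tested, 20.8% rose and 24.6% fell. With scaling to macrophage markers 27 were higher and 1 lower (median 1.01), and with T cell markers 1 and 25. Mmp12, the macrophage elastase, rose from 482 ± 13.7 to 770.1 ± 5.18 CPM (0.68, SE 0.032). Acp5, a lysosomal acid phosphatase, rose from 80.0 ± 2.54 to 92.2 ± 1.35 CPM (0.20). Fth1, the ferritin heavy chain, fell from 6797 ± 215 to 4742 ± 113 CPM (-0.52), and Ctsb, a lysosomal cathepsin, from 1718 ± 9.03 to 1101 ± 26.2 CPM (-0.64). Itgax, which encodes CD11c and was picked after its values were seen, was at 107 ± 4.50 and 18.7 ± 1.86 CPM (-2.52).

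Of 12 other receptors for lipid uptake and clearance, 2 rose, 9 fell and 1 did not pass, with a median of -0.84. With scaling to macrophage markers 9 were higher and 1 lower (median 0.59), and with T cell markers 0 and 10. Msr1, the class A scavenger receptor, fell from 207 ± 5.80 to 93.8 ± 2.55 CPM (-1.15), and Sorl1, an endosomal sorting receptor, from 232 ± 4.19 to 130.2 ± 3.10 CPM (-0.83). Marco, another scavenger receptor, rose from 7.25 ± 0.742 to 12.5 ± 0.579 CPM (0.78), and Vldlr, a receptor for triglyceride-rich lipoproteins, from 1.97 ± 0.322 to 3.12 ± 0.503 CPM (0.66). The call of Vldlr was lost with DESeq2 and when replicate 2 (0.62) or 3 (0.58) of the control or replicate 1 (0.55) or 3 (0.64) of the DB2313 group was left out. Mertk, a receptor for apoptotic cells, was also picked after its values were seen, and was at 45.0 ± 1.47 and 10.0 ± 0.351 CPM (-2.16).

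Beside Plin2, 18 of 22 genes of lipid droplets and triglyceride storage could be tested, of which 3 rose, 8 fell and 7 did not pass, with a median of -0.12. With scaling to macrophage markers 16 were higher and 1 lower (median 1.31), and with T cell markers 0 and 16. Agpat2, an enzyme of triglyceride synthesis, rose from 24.7 ± 2.005 to 28.4 ± 0.668 CPM (0.20), and Hilpda, an inhibitor of triglyceride breakdown, from 11.1 ± 1.12 to 15.0 ± 0.399 CPM (0.43). The call of Agpat2 was lost with DESeq2, with no filter, and without any 1 library other than control replicate 3, with values of 0.14 to 0.22. Soat1, which esterifies cholesterol for storage, fell from 195 ± 3.97 to 107 ± 5.43 CPM (-0.86), and Acsl1, which activates long-chain fatty acids, from 114 ± 3.73 to 27.8 ± 1.26 CPM (-2.04). Cidec, a droplet protein of adipocytes, had no count in any library.

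Apoe shares its control by liver X receptors (LXR) with other genes of cholesterol export. Of 13 tested genes of cholesterol efflux and LXR targets, 4 rose, 5 fell and 4 did not pass, with a median of -0.06 that turned to 0.03 with library size scaling. With macrophage markers 13 were higher and 0 lower (median 1.37), and with T cell markers 1 and 11. Mylip rose by 0.29 and Lpcat3, which makes polyunsaturated phospholipids, by 0.18, whereas the sterol exporter Abcg1 fell from 172 ± 2.03 to 123 ± 2.68 CPM (-0.48) and Npc1, which releases cholesterol from lysosomes, from 139 ± 4.01 to 100.4 ± 7.04 CPM (-0.47). The call of Lpcat3 was lost with DESeq2 and when replicate 1 (0.14) or 2 (0.18) of the control or replicate 1 (0.14) of the DB2313 group was left out. Cd36, Fabp4, Plin2 and Lpl are known targets of PPAR factors. Among 17 tested genes of PPAR and fatty acid oxidation, 3 rose, 10 fell and 4 did not pass, with a median of -0.20. With macrophage markers 16 were higher and 0 lower (median 1.23), and with T cell markers 1 and 16. Hadhb and Acadvl, enzymes of fatty acid oxidation, rose by 0.21 and 0.32, while Ucp2, a mitochondrial carrier, fell by 0.47 and Hadha by 0.12 on the log2 scale. The call of Hadha was lost with scaling to library size (-0.03) or to the upper quartile (-0.06), and when replicate 1 (-0.11) or 2 (-0.12) of the control or replicate 1 (-0.11) of the DB2313 group was left out.

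Partners that bind Spp1, Lpl or Lgals3 were tested for 11 of 14 genes, of which 2 rose, 4 fell and 5 did not pass. Their median of -0.02 was 0.08 with library size scaling, 0.05 with upper quartile scaling and -0.14 with DESeq2 or with no filter. With macrophage markers 11 were higher and 0 lower (median 1.41), and with T cell markers 0 and 11. The integrin subunit Itgb3 rose from 98.0 ± 1.16 to 132 ± 2.25 CPM (0.43) and the heparan sulfate proteoglycan Sdc4 by 0.17. The call of Sdc4 was lost with DESeq2, with no filter, with the replicate number as a block, and without any 1 control library (0.16 to 0.19) or DB2313 replicate 2 (0.12). The integrin subunit Itgb1 fell from 440.5 ± 5.06 to 266 ± 3.01 CPM (-0.73), and Cd44, a receptor for osteopontin and hyaluronan, from 250 ± 3.73 to 164 ± 5.70 CPM (-0.61). Of 23 paralogs of the 10 genes, 6 could be tested, of which 1 rose, 2 fell and 3 did not pass, with a median of 0.09. With macrophage markers 5 were higher and 0 lower, and with T cell markers 0 and 4 (median -0.49). Galectin-9 (Lgals9) rose by 0.28 and galectin-8 (Lgals8) fell by 0.29 on the log2 scale. Fabp3 had 12, 12 and 68 counts in the control libraries and 5, 9 and 5 in the DB2313 libraries, so that control replicate 3 held most of its counts, and its call as lower was lost without that library (-0.93). The paralogs Fabp2, Fabp9, Pmp2, Crabp1, Ibsp, Dmp1, Mepe and Dspp had no count.

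**Figure D4:**
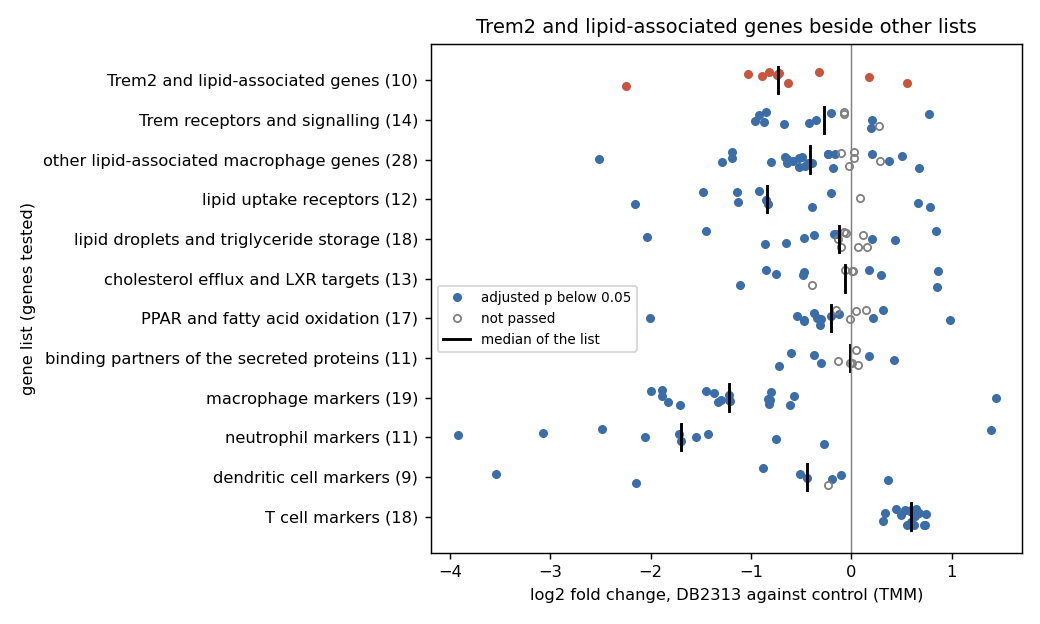
Log2 fold change (TMM) in the DB2313 group against the control group for each tested gene of 12 lists, with the number tested in brackets, filled points for an adjusted p below 0.05, open points for the rest and a line at the median of each list. The median is -0.73 for Trem2 and the lipid-associated genes, -1.22 for the macrophage markers and 0.59 for the T cell markers. With scaling to macrophage markers, the medians of all lists shown except the neutrophil markers lie above 0.

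Other cells could also express some of the 10 genes. Adipocytes, the main source of Fabp4, left at most 8.93e-05% of the counts in any library over 6 markers, with Lep at 0 in all of them and none of the 6 passing the filter. Of 11 neutrophil markers, 1 rose and 10 fell, with a median of -1.70 that was -0.27 with scaling to macrophage markers. The calgranulins S100a9 and S100a8 fell from 514 ± 4.98 to 156 ± 7.80 CPM and from 511 ± 7.99 to 91.1 ± 11.9 CPM, and Retnlg rose from 0.294 ± 0.116 to 0.775 ± 0.267 CPM, a call that was lost with DESeq2, with no filter, and when replicate 1 (1.23) or 2 (1.26) of the control or replicate 1 (1.07) of the DB2313 group was left out. Of 9 tested dendritic cell markers, 1 rose and 7 fell, with a median of -0.44 that became 0.99 with macrophage markers, among them Flt3 (0.36), Ccl22 (-0.88) and Ccr7 (-0.10), whose call was lost with scaling to library size (-0.01) or to the upper quartile (-0.04). Osteoclasts use Spp1, Gpnmb and Acp5. Of 3 tested osteoclast markers, the fusion genes Dcstamp and Ocstamp fell by 1.48 and 2.48 on the log2 scale with TMM. Nfatc1 did not pass (-0.03), at 104 ± 3.24 and 101 ± 3.94 CPM. Ocstamp had only 17, 18 and 25 counts in the control and 2, 1 and 8 in the DB2313 libraries. Of 5 tested endothelial markers 3 rose, with Pecam1, which leukocytes also carry, at 0.15, Kdr at 0.58 and Cdh5 at 2.43. Cdh5 had only 3, 3 and 4 counts in the control and 25, 15 and 18 in the DB2313 libraries. The median of these markers was 0.49, and Cldn5 had no count. Both tested fibroblast markers did not pass, with a median of -0.19. The part of these cells in the values of the 10 genes was not tested.

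T cell markers all rose with TMM scaling, 18 of 18, with a median of 0.59 that became 0.01 with scaling to themselves. Tcf7, a transcription factor of naive and memory T cells, rose from 558 ± 18.5 to 819.6 ± 16.2 CPM (0.56), and Lck, the kinase of the T cell receptor, from 339 ± 4.52 to 528 ± 15.2 CPM (0.64). Of 9521 genes with at least 10 CPM in the higher group, those whose profile over the 6 libraries lay closest to Trem2 were Mppe1 (root mean square distance of 0.0267 in log2 CPM after centring), Tbc1d10c (0.0279), Ccsap (0.0305), A230050P20Rik (0.0308) and Pik3ip1 (0.0328). Tbc1d10c was at 171 ± 3.57 and 253 ± 9.04 CPM and Pik3ip1, an inhibitor of phosphatidylinositol 3-kinase, at 99.3 ± 4.39 and 149.5 ± 6.53 CPM. With 2 groups of 3 libraries, this likeness mostly reflects the size of the difference between the groups.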

How the data were processed

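RNA of CD8T cells cocultured with macrophages was sequenced in 3 control and 3 DB2313 samples. The authors deposited a table of raw counts per gene without normalization, with gene coordinates and lengths. The paper's methods name LifeScope for alignment and counting, whereas the submitters' processing notes list CASAVA 1.8, HISAT2 2.0.5 and featureCounts 1.5.0-p3. Genome build, annotation release and strand setting are not given in the sources used here. Of the table's genes, 54409 are also in release 21 of the mouse GENCODE annotation, and 98.3% of these, including all 10 genes described, had the GRCm38 coordinates given there. If strand was not used, reads of a gene and of an antisense partner cannot be told apart. Each library held 16611975 to 18596217 counts in total. A gene with no count may still have had a share of up to 1.81e-05% of the smallest library (3 counts), by counting error only.

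Genes were fitted in R 4.3.3 by the quasi-likelihood functions glmQLFit and glmQLFTest of edgeR 4.0.16, after filterByExpr and TMM and with no covariate, and p-values were adjusted by Benjamini-Hochberg over 14883 genes. Called genes had an adjusted p below 0.05, and by a second rule also an absolute log2 fold change above 1. The SE was obtained from the fitted change and its F statistic. The common biological coefficient of variation was 4.67%. Libraries of a group differed by a chi-square per gene of 2.54 to 4.00, above sampling noise, so all 6 were kept. The scripts were tested on simulated data. Likeness to Trem2 was the root mean square distance of centred log2(CPM + 0.5). TMM assumes that most genes do not differ. Scaling to marker lists instead divides by the summed counts of the T cell or macrophage markers.

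The 10 genes and the 16 other lists were chosen with earlier results of these data known. Named are the 10 genes, the 2 genes of each list with the highest control CPM among those called in each direction, the 5 genes most like Trem2, family members within 100 kb, the defining markers and the markers at 0. Itgax, Mertk, Apoc1, Tomm40, Nfatc1 and Cdh5, and the lists' genes without a count, were added by hand. The alternatives were DESeq2 1.42.0, scaling by library size, upper quartile, T cell or macrophage markers, a replicate block, no filter on low counts, a minimum of 10 counts in all samples, the fold rule, and leaving out single samples.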

Additional observations from a re-analysis of the deposited data

How the results depend on the processing

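Of 140 alternative values for the 10 genes, 131 kept their sign and 9 changed it, all by scaling to marker genes. With T cell markers, Trem2 was at -0.034 (SE 0.043, within its error of 0) and Plin2 at -0.41, so that 0 of the 10 genes were called higher. With macrophage markers, Apoe was at 0.61, Lpl at 0.80, Fabp4 at 0.40, Fabp5 at 0.69, Gpnmb at 1.10, Lgals3 at 0.71 and Spp1 at 0.53, with 8 of the 10 genes called higher and 1 lower. With TMM and the fold rule, 0 were higher and 2 lower. Over all genes, the higher and lower calls were 3096 and 3667 with TMM (54.2% lower), 4931 and 2852 with library size scaling (36.6% lower), 4319 and 3102 with upper quartile scaling (41.8% lower), 173 and 11492 with T cell markers, 13919 and 232 with macrophage markers, and 204 and 789 with the fold rule. The median of all genes turned to -0.0091 with DESeq2, -0.012 with no filter and -0.57 with T cell markers. With macrophage markers the medians turned to 0.70 for the 10 genes, 1.15 for Trem signalling, 1.01 for other lipid-associated macrophage genes, 0.59 for lipid uptake receptors, 1.31 for lipid droplets, 1.37 for cholesterol efflux, 1.23 for PPAR genes, 0.21 for the macrophage markers themselves and 0.99 for dendritic cell markers. The median of cholesterol efflux genes was 0.035 with library size and 0.0041 with upper quartile scaling, and that of endothelial markers -0.094 with T cell markers. These shifts follow from the scaling itself, which moves every gene alike, and which scaling is right was not tested.

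Leaving out each library in turn reversed none of the 10 genes, with Trem2 between 0.50 and 0.58, Plin2 between 0.14 and 0.19 and Cd36 between -2.29 and -2.18. No pairing by replicate number was seen, since the deviations of same-numbered samples correlated at 0.014, -0.0039 and 0.019. Those of differently numbered samples correlated at -0.032 to 0.020. Whether the samples were paired by design is not stated. With the number as a replicate block, Trem2 was at 0.55, Cd36 at -2.25 and Fabp4 at -1.03, and 2912 genes were called higher and 3525 lower. Depth limits Fabp4, with at most 84 counts in a library, and the genes listed at 0.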
